A study of Drosophila melanogaster with 6 samples.

Results

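The transcripts of 10 heat shock and co-chaperone genes, Hsp83, Hop, CHORD, CHIP, Hsc70-4, Hsc70-5, DnaJ-1, Hsp26, Hsp27 and CG14207, were followed in S2 cells of Drosophila in which NAP-1 or CBP had been knocked down. The genes were taken by name from a list, and all 10 were among the 8604 gene symbols of the deposited table. Levels are RPKM, in which reads are divided by feature length and by the reads of the sample, so that levels can be set against each other between genes. A gene's level is the sum of its listed features. Of the 10 genes, 9 averaged 1 RPKM or more across the samples and were tested, and Hsp27 did not. S2 is an established embryo-derived line with features of blood cells, grown here in Schneider's medium with serum. The 3 groups, each of 2 samples, were a control knockdown, a knockdown of the histone chaperone NAP-1, which helps to assemble nucleosomes, and a knockdown of CBP, the product of nej, which acetylates histones and other proteins. The labels name no other allele, agent or time, and how the knockdowns were made is not given in the sources used here. All samples came from this 1 line, and whether the samples of a group were separate cultures is not given.

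Heat shock proteins are molecular chaperones, which bind unfolded or partly folded proteins and keep them from aggregating. Hsp70 proteins, aided by J-domain partners, take up new or damaged chains and pass some of them to Hsp90 through adaptors, and Hsp90 brings client proteins such as kinases and receptors to an active form. Small heat shock proteins hold unfolded proteins without using ATP. The heat-inducible genes were first seen in Drosophila as puffs on polytene chromosomes and are driven by the heat shock factor Hsf, whereas the Hsc70 genes are expressed without heat shock. One gene of the list, Hsc70-5, encodes the mitochondrial Hsp70, so the name cytosolic does not cover every gene described here.

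The samples held 4162019 to 5362319 alignments. The knockdown samples of CBP listed fewer features at 1 RPKM or more, 3749 and 3255, than the control samples with 4120 and 4144 and the NAP-1 samples with 3962 and 3995. The 20 most abundant genes took 33.1% and 38.4% of the summed RPKM after CBP knockdown, 31.1% and 29.5% after NAP-1 knockdown and 23.3% and 27.8% in control. Nap1, the gene targeted in the first knockdown, was listed at 220 and 243 RPKM in control, 20.6 and 26.5 with NAP-1 knocked down, and 325 and 365 with CBP knocked down. It fell by 3.25 ± 0.27 (log2, SE) with NAP-1 knockdown (limma adjusted p = 0.0296), a difference that stayed between -3.43 and -3.08 in 15 other settings, where the adjusted p ran from 0.0238 to 0.431. The listed features of nej summed to 3.25 and 2.47 RPKM in control, 1.26 and 2.41 with NAP-1 knocked down, and 0.899 and 0.363 with CBP knocked down. The nej difference with CBP knockdown was -1.26 ± 0.37 (limma adjusted p = 0.0466), a call lost with the same sign in 9 of 14 other settings. It became 0.23 (adjusted p = 0.556) once the trend of fold change with transcript length was removed, and the median over genes of similar length was -1.07. Of 8 markers of the blood-cell features of S2, 7 were listed, and their summed level was 112 and 71.3 RPKM in the control samples, 77.6 and 46.7 with NAP-1 knocked down, and 40.8 and 18.8 with CBP knocked down. Nearly all of it was Pvr, crq and drpr, while srp, Hml, NimC1 and He stayed at 0.348 RPKM or below in every sample. Markers of neurons summed to at most 3.26 RPKM, and those of muscle, ovarian somatic cells and germ line to at most 0.118, 0.00553 and 0.282 RPKM. The part of these differences in the results that follow was not tested.

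In control cells Hop was the most abundant of the 10 transcripts, at 85.3 and 83.8 RPKM. This level was above that of 97.5% of the 3988 genes tested. Hsp83, the only Hsp90 gene of the list, came next at 24.98 and 21.9 RPKM, and DnaJ-1 at 22.4 and 21.8 overlapped it. CG14207 followed at 26.1 and 11.3 RPKM, then Hsc70-4 at 14.6 and 7.35, Hsc70-5 at 11.1 and 10.6, and CHIP at 11.97 and 8.54. From Hsp83 to CHIP, each gene overlapped its neighbour in this order and could not be ranked above it. CHORD at 4.97 and 5.13 RPKM and Hsp26 at 4.55 and 4.49 lay below them without overlap. Hsp27 was last, listed at close to 0 in 1 control sample and at 0.456 RPKM in the other. These are levels of the listed features, and for several genes not of the whole gene: RefSeq gives 7 transcripts for Hsc70-4, of which the table held 1 feature, and 2 transcripts each for Hsp26, Hsp27, Hsc70-5 and DnaJ-1, again with 1 feature. Hop, CHIP and CHORD have 1 transcript and 1 feature. Hsp83 had 2 features with identical values, which were counted once. With both summed, Hsp83 would lie above DnaJ-1 and CG14207 without overlap and still below Hop.

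**Figure D1:**
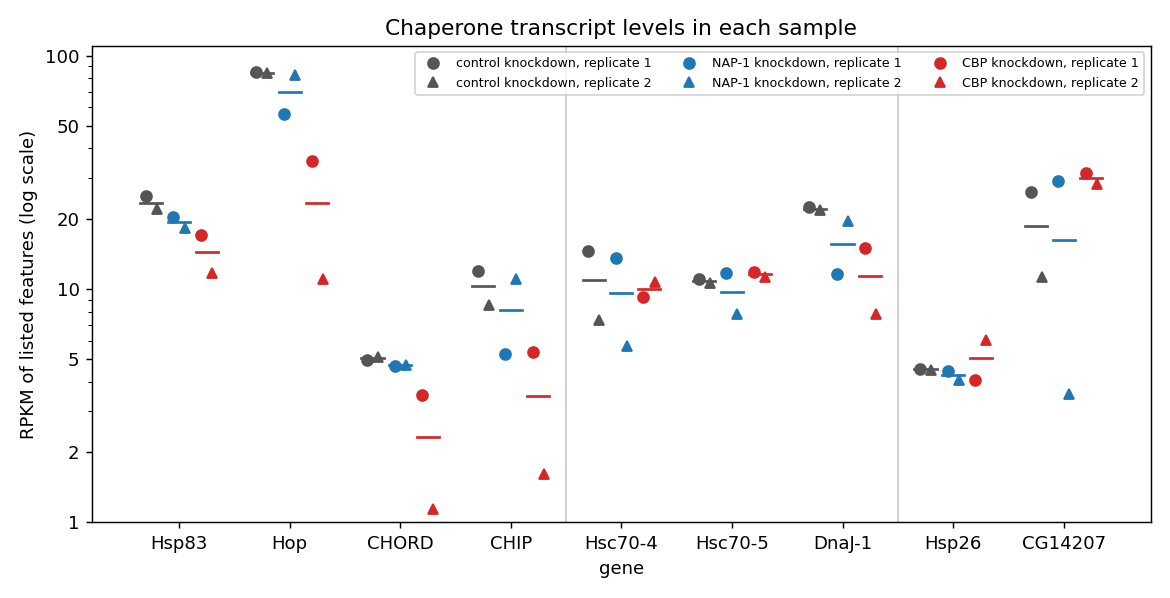
RPKM of the listed features of the 9 genes tested, on a log scale, in each of the 6 samples; circles are replicate 1, triangles replicate 2, short lines the mean of a group, and grey vertical lines part Hsp90 and its co-chaperones, the Hsp70 class with DnaJ-1, and the small heat shock genes. Hop falls from 85.3 and 83.8 RPKM in control to 35.5 and 10.99 after CBP knockdown, and CG14207 is lowest, at 3.53 RPKM, in NAP-1 knockdown replicate 2.

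Hop, the adaptor that carries clients from Hsp70 to Hsp90 and is now named Stip1 (CG2720), showed the widest range of the 9 genes. It was listed at 85.3 and 83.8 RPKM in control, 56.4 and 82.7 with NAP-1 knocked down, and 35.5 and 10.99 with CBP knocked down. Both CBP samples lay below every other sample, and replicate 2 was far lower than replicate 1. Hop fell with CBP knockdown, to a mean of 23.2 ± 17.3 RPKM (SD, n = 2) from 84.6 ± 1.03 in control, and its log2 difference of -2.03 ± 0.51 (SE) was the 1 call among these genes (limma adjusted p = 0.0333). The call was lost without CBP replicate 2, where the difference was -1.23 (limma adjusted p = 0.157), and without control replicate 1 or control replicate 2, where it was -2.02 and -2.04 (adjusted p = 0.154 and 0.110). The replicate number as a block in the model also took the adjusted p to 0.0530. With the length trend removed the Hop difference was -1.78 (limma adjusted p = 0.0414). With NAP-1 knockdown the Hop difference was -0.30 ± 0.51 (limma adjusted p = 0.978, 95% interval -1.52 to 0.91). In bulk RNA, fewer cells that express a gene and less RNA in each cell cannot be told apart.

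Hsp83, the cytosolic Hsp90, was listed at 24.98 and 21.9 RPKM in control, 20.4 and 18.2 with NAP-1 knocked down, and 16.99 and 11.7 with CBP knocked down. The groups did not overlap, with control above NAP-1 knockdown and NAP-1 above CBP knockdown. The log2 difference was -0.69 ± 0.28 with CBP knockdown (limma adjusted p = 0.102) and -0.27 ± 0.28 with NAP-1 knockdown (adjusted p = 0.978), so neither passed the threshold of 0.05. The CBP value is close to that of other transcripts as long: the median over genes of similar length was -0.45, and with the length trend removed the Hsp83 difference was -0.04 (limma adjusted p = 0.916). Without CBP replicate 2 it was -0.44 (limma adjusted p = 0.387).

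The ratio of Hop to Hsp83 in the same sample was 3.41 and 3.82 in control, 2.77 and 4.55 with NAP-1 knocked down, and 2.09 and 0.937 with CBP knocked down. Hop was thus above Hsp83 in every sample except CBP replicate 2. Hsp83 was counted once here from its 2 identical features, and summing both would lower every ratio. The ratio of Hop was lower in both CBP samples than in any other. The ratios of CHIP, CHORD and DnaJ-1 to Hsp83 did not separate in this way. In CBP replicate 1 they were 0.315, 0.206 and 0.883. For CHIP and DnaJ-1 these were above NAP-1 replicate 1, at 0.259 and 0.566, and for CHORD above control replicate 1, at 0.199.

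CHORD, a zinc-binding Hsp90 co-chaperone now named mora (CG6198), was listed at 4.97 and 5.13 RPKM in control, 4.69 and 4.73 with NAP-1 knocked down, and 3.497 and 1.14 with CBP knocked down. Control and NAP-1 samples were within a narrow band and the CBP samples lay below it, replicate 2 furthest. The CBP difference was -0.96 ± 0.39 (log2, SE; limma adjusted p = 0.108), -1.50 (adjusted p = 0.0390) without CBP replicate 1 and -0.43 (adjusted p = 0.411) without CBP replicate 2. With the length trend removed the CBP value was -0.96 (limma adjusted p = 0.0834). The NAP-1 difference was -0.08 ± 0.39 (limma adjusted p = 0.985).

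CHIP, a ubiquitin ligase that binds Hsp70 and Hsp90 and marks their clients for degradation, is now named STUB1 (CG5203). It was listed at 11.97 and 8.54 RPKM in control, 5.27 and 11 with NAP-1 knocked down, and 5.35 and 1.61 with CBP knocked down. The CBP samples lay below control, but CBP replicate 1 stood at the level of NAP-1 replicate 1. The CBP difference was -1.45 ± 0.51 (limma adjusted p = 0.0746), -2.09 (adjusted p = 0.0484) without CBP replicate 1 and -0.81 (adjusted p = 0.354) without CBP replicate 2. With the length trend removed the CBP value was -1.44 (limma adjusted p = 0.0768). The NAP-1 difference was -0.36 ± 0.51 (limma adjusted p = 0.978), and 0.11 without NAP-1 replicate 1.

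**Figure D2:**
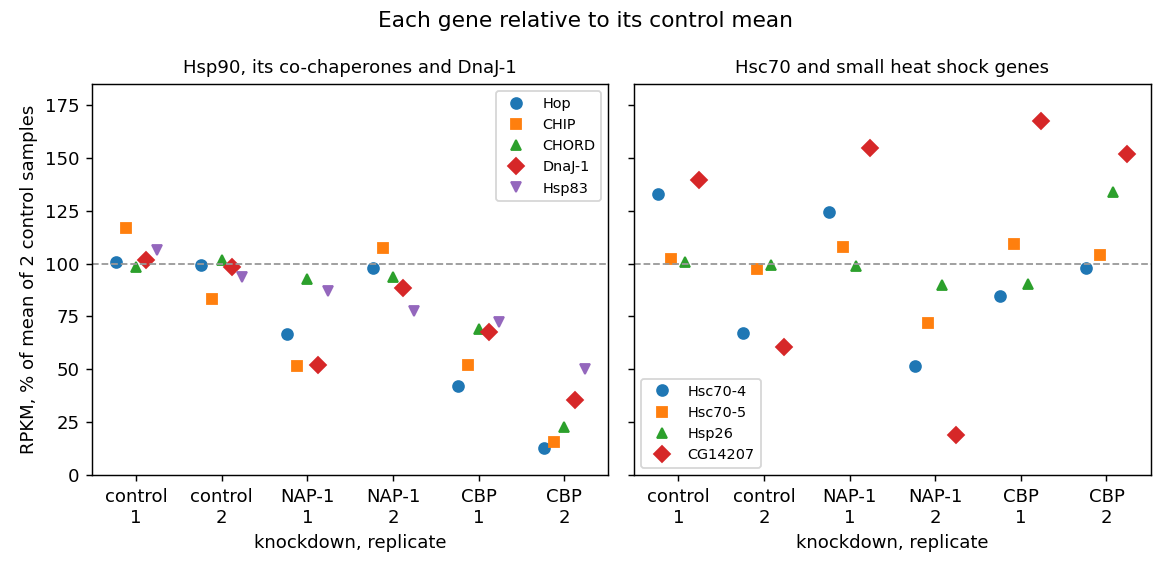
RPKM of each gene in each sample as a percentage of the mean of the 2 control samples (dashed line); the left panel holds Hop, CHIP, CHORD, DnaJ-1 and Hsp83, the right panel Hsc70-4, Hsc70-5, Hsp26 and CG14207. The left panel holds the genes that were lowest in CBP replicate 2, so the panels follow the values and not the gene classes. By class DnaJ-1 belongs with Hsc70-4 and Hsc70-5. The contrast between the panels in that sample thus comes from this sorting and is no separate result. In CBP replicate 2 the 5 genes on the left run from 12.99% (Hop) through 35.4% (DnaJ-1) up to Hsp83. The 4 on the right stand at 97.8% (Hsc70-4) to 152% (CG14207).

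DnaJ-1 encodes the main inducible Hsp40, a J-domain protein that sets off ATP hydrolysis by Hsp70. It was listed at 22.4 and 21.8 RPKM in control, 11.5 and 19.5 with NAP-1 knocked down, and 14.996 and 7.83 with CBP knocked down. All 4 knockdown samples lay below control, and the samples of the knockdowns overlapped. The difference was -0.96 ± 0.38 with CBP knockdown (log2, SE; limma adjusted p = 0.1003) and -0.53 ± 0.38 with NAP-1 knockdown (adjusted p = 0.978). With the length trend removed the CBP value was -0.70 (limma adjusted p = 0.180), and without CBP replicate 2 it was -0.53 (adjusted p = 0.434).

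Hsc70-4, the main constitutive cytosolic Hsp70, was listed at 14.6 and 7.35 RPKM in control, 13.6 and 5.68 with NAP-1 knocked down, and 9.26 and 10.7 with CBP knocked down. Its replicates differed more than its groups: replicate 1 was about as high in control as in NAP-1 knockdown, replicate 2 was low in both, and the CBP samples lay between. The control pair differed by 0.90 on the log2 scale, more than the pairs of 90.4% of genes. The differences from control were -0.06 ± 0.46 with CBP knockdown (limma adjusted p = 0.940, 95% interval -1.15 to 1.04) and -0.21 ± 0.46 with NAP-1 knockdown (adjusted p = 0.978). The sign of both turned without control replicate 1, to 0.39 and 0.24.

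Hsc70-5, the mitochondrial Hsp70, was listed at 11.1 and 10.6 RPKM in control, 11.7 and 7.77 with NAP-1 knocked down, and 11.8 and 11.2 with CBP knocked down. The samples lay close together apart from NAP-1 replicate 2, the lowest. The CBP difference of 0.09 ± 0.28 (log2, SE; limma adjusted p = 0.841) had a 95% interval of -0.58 to 0.75. The NAP-1 difference was -0.16 ± 0.28 (limma adjusted p = 0.978) and turned to 0.10 without NAP-1 replicate 2. With the length trend removed the CBP value was 0.75 (limma adjusted p = 0.106).

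Hsp26, a heat-inducible small heat shock protein, was listed at 4.55 and 4.49 RPKM in control, 4.47 and 4.06 with NAP-1 knocked down, and 4.08 and 6.05 with CBP knocked down. It had the narrowest range of the 9 genes, 0.48 on the log2(RPKM + 1) scale, and the highest value was in CBP replicate 2. The difference was 0.12 ± 0.29 with CBP knockdown (limma adjusted p = 0.788, 95% interval -0.58 to 0.81) and -0.07 ± 0.29 with NAP-1 knockdown (adjusted p = 0.982). The CBP value turned to -0.12 without CBP replicate 2, and the NAP-1 value to 0.02 with median-of-ratios scaling.

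Hsp27, another small heat shock gene, was listed at 0.456 RPKM in control replicate 2 and at 2.24e-05 RPKM or less in the other 5 samples. No test or fold change was made at these levels. In the RefSeq gene order Hsp26 and Hsp27 lie in one cluster with Hsp22 and Hsp23. Hsp22, a mitochondrial small heat shock protein, was listed at 57.3 and 63.6 RPKM in control, 65.7 and 45.7 with NAP-1 knocked down, and 34.0 and 37.1 with CBP knocked down. Hsp23 was listed at 7.40 and 6.91, 8.11 and 9.48, and 11.8 and 13.2 RPKM in the same groups. The CBP samples thus lay below the others for Hsp22 and above them for Hsp23, and levels in the cluster spanned from near 0 to 65.7 RPKM. Against control the CBP differences were -0.75 ± 0.28 for Hsp22 and 0.73 ± 0.25 for Hsp23 (log2, SE). Neither was called (limma adjusted p = 0.0830 and 0.0732). Over all genes 42.4% lay below control and 33.7% above it without overlap.

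CG14207, a member of the small heat shock family, summed to 26.1 and 11.3 RPKM in control, 28.9 and 3.53 with NAP-1 knocked down, and 31.2 and 28.3 with CBP knocked down. It was low in NAP-1 replicate 2 and control replicate 2 and between 26.1 and 31.2 RPKM in the other 4 samples. The difference was 0.75 ± 0.83 with CBP knockdown (log2, SE; limma adjusted p = 0.516) and -0.65 ± 0.83 with NAP-1 knockdown (adjusted p = 0.978). The NAP-1 value turned to 0.71 without NAP-1 replicate 2. The spread came from 1 of its features. The feature named by an mRNA was listed at 24.2 and 7.09 RPKM in control, 26.8 and 5.17e-09 with NAP-1 knocked down, and 29.1 and 26.8 with CBP knocked down. The feature named by the symbol alone was listed between 1.47 and 4.17 RPKM in all 6 samples. The first held 62.95% of the sum in control replicate 2, nearly none in NAP-1 replicate 2, and 92.7% to 94.8% in the other 4 samples. RefSeq gives 4 transcripts for this gene, of which 2 features were listed.

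**Figure D3:**
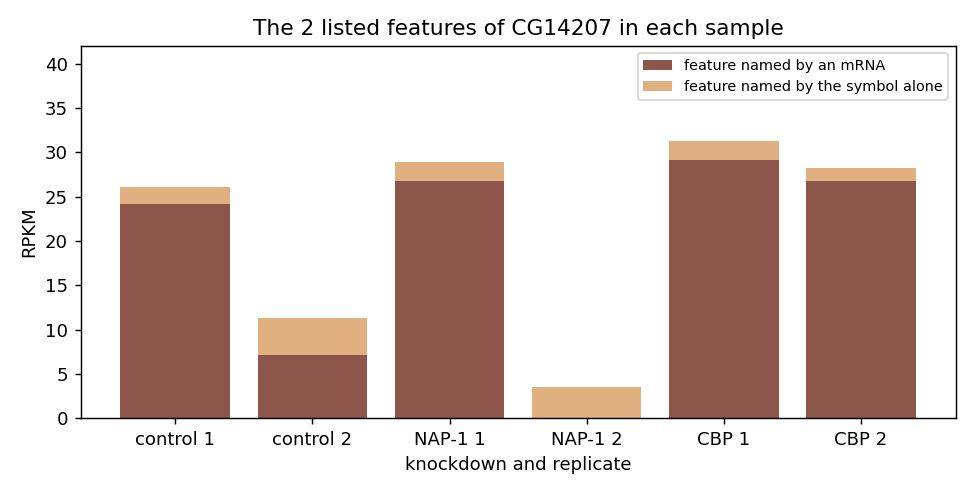
RPKM of the 2 listed features of CG14207, stacked, in each of the 6 samples; each bar is 1 sample. The lower block, the feature named by an mRNA, is 7.09 RPKM in control replicate 2 and close to 0 in NAP-1 replicate 2, and between 24.2 and 29.1 RPKM in the other 4 samples.

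With CBP knockdown against control, 1 of the 9 genes fell (Hop) and none rose, by limma with an adjusted p under 0.05. Over all 3988 genes 17.4% were called lower and 8.5% higher, so the share of these genes called was no larger than that of the table. The split over all genes, 339 higher and 693 lower, was 494 and 639 when samples were scaled by the median of ratios, 371 and 413 after quantile normalization, and 438 and 384 with the length trend removed. At an unadjusted p under 0.05, 5 of the 9 were lower (Hop, CHIP, CHORD, DnaJ-1 and Hsp83) and none higher, beside 27.2% of all genes lower and 16.5% higher. The same 5 lay below control without overlap, beside 42.4% of all genes. Hsc70-5 and CG14207 lay above control without overlap, beside 33.7% of all genes. Of the 9 differences 6 were below 0, beside 55.4% of all genes. The median difference of the 9 genes was -0.69, beside -0.15 over all genes. It was -0.04, beside 0.08 over all genes, with the length trend removed, and -0.43, beside -0.02, without CBP replicate 2. Without CBP replicate 2, and without control replicate 1, no gene of the whole table was called in this comparison; each of these fits had 1 sample fewer.

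With NAP-1 knockdown against control, none of the 9 genes was called by limma in either direction, and none had an unadjusted p under 0.05, beside 2.53% of all genes lower and 0.978% higher. Over all genes 0.0% were called higher and 0.0251% lower, the latter being Nap1 alone. All 9 differences were below 0, as were 63.7% of those of all genes. They ran from -0.65 for CG14207 to -0.07 for Hsp26, with adjusted p between 0.978 and 0.985. Without overlap, 5 genes lay below control (Hsp83, Hop, CHORD, DnaJ-1 and Hsp26) and none above, beside 26.2% of all genes lower and 8.12% higher. The median difference was -0.27, beside -0.13 over all genes. It was -0.04, beside 0.03, with the length trend removed, -0.13, beside -0.14, without control replicate 1, and -0.09 in each case, for the 9 genes and for all genes, without NAP-1 replicate 2. The sign of Hsp26 and CHORD turned under 2 other scalings, and that of Hsc70-4 and Hsc70-5 turned with the length trend removed. Both comparisons use the same control samples.

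The direct contrast of NAP-1 with CBP knockdown uses no control sample in its group means, and it called none of the 9 genes by limma, beside 1.43% of all genes called higher and 1.65% lower. At an unadjusted p under 0.05, 1 gene was higher in NAP-1 than in CBP knockdown (Hop) and none lower, beside 17.7% of all genes higher and 13.9% lower. Its difference was 1.73 ± 0.51 (log2, SE; limma adjusted p = 0.0880, 95% interval 0.51 to 2.95), and 0.93 (adjusted p = 0.345) without CBP replicate 2. CHIP differed by 1.09 ± 0.51 (limma adjusted p = 0.187) and CHORD by 0.88 ± 0.39 (adjusted p = 0.177), and by 0.45 and 0.34 without CBP replicate 2. Without NAP-1 replicate 2, CHIP differed by 0.62. Hsp83 and DnaJ-1 differed by 0.42 and 0.43, and Hsc70-4, Hsc70-5 and Hsp26 by -0.15, -0.25 and -0.19 (limma adjusted p between 0.320 and 0.833 for these 5). CG14207 was at -1.40 ± 0.83 (limma adjusted p = 0.273), at -2.76 (adjusted p = 0.0418) without NAP-1 replicate 1 and at -0.04 (adjusted p = 0.969) without NAP-1 replicate 2. Hop, Hsp83 and CHORD were higher without overlap and no gene was lower, beside 32.8% and 29.8% of all genes. Of the 9 differences 4 were below 0, beside 47.2% of all genes. The median difference was 0.42, beside 0.07 over all genes. It was 0.02, beside -0.05, with the length trend removed and 0.05, beside -0.06, without CBP replicate 2.

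**Figure D4:**
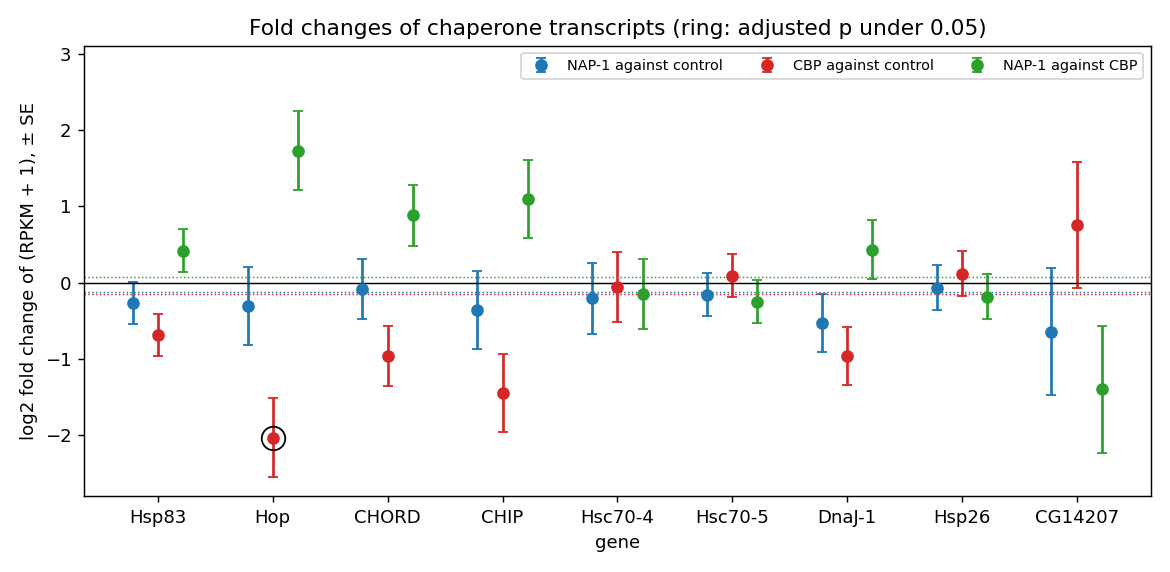
Log2 difference of (RPKM + 1) of the 9 genes in the 3 comparisons, with bars of ± 1 SE from the limma fit over 6 samples; dotted lines give the median over all 3988 genes in each comparison. Only Hop with CBP knockdown, at -2.03, is ringed as passing an adjusted p of 0.05.

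The 9 genes divided by the sample in which each was lowest. Hop, CHIP, CHORD, DnaJ-1 and Hsp83 were lowest in CBP replicate 2, where 42.3% of all genes were lowest. Hsc70-4, Hsc70-5, Hsp26 and CG14207 were lowest in NAP-1 replicate 2, where 24.5% of all genes were lowest. None of the 9 was lowest in any of the other 4 samples. Over all genes 13.8% and 6.12% were lowest in control replicates 1 and 2, 9.10% in NAP-1 replicate 1 and 4.21% in CBP replicate 1. CBP replicate 2 and NAP-1 replicate 2 were thus also the samples in which the largest shares of all genes were lowest. The CBP replicates of Hop differed by 1.61 on the log2 scale, more than those of 97.3% of genes, against a median of 0.35. Those of CHIP, CHORD and DnaJ-1 differed by 1.28, 1.07 and 0.86, more than 94.1%, 89.7% and 83.7% of genes. The summed level of the 9 genes was 0.321% and 0.251% of the summed RPKM in control, 0.229% and 0.234% with NAP-1 knocked down, and 0.167% and 0.108% with CBP knocked down. In RPKM this sum was 206 and 175 in control and 133 and 89.6 with CBP knocked down. Hop, the largest part in control, made up 85.3 and 83.8, and 35.5 and 10.99 of it. The summed RPKM of all genes tested was 64053 and 69623.1 in control and 79507.9 and 83042.5 with CBP knocked down. The share thus does not describe a fall of every gene.

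Over the 6 samples Hop correlated with CHORD at r = 0.978, with CHIP at 0.962, with Hsp83 at 0.919 and with DnaJ-1 at 0.897. The correlation with Hsc70-4, Hsc70-5, CG14207 and Hsp26 was -0.19, -0.40, -0.50 and -0.78. These values describe 6 samples that share their libraries and group differences. The share of all genes that correlate with Hop as closely was not worked out. Of 1230 genes with a mean of at least 10 RPKM, the 3 with the highest correlation with Hop were CG44000, CG3061 and Chd64, each at r = 0.998. They were picked by likeness to Hop over these same 6 samples. A fall with CBP knockdown was thus built into the choice, and the tests of these 3 genes are no separate result. CG3061, a J-domain gene, was listed at 25.9 and 24.5 RPKM in control, 16.8 and 22.1 with NAP-1 knocked down, and 10.6 and 3.60 with CBP knocked down. Chd64, a calponin-family gene, fell by 2.16 ± 0.50 with CBP knockdown (limma adjusted p = 0.0284) and CG44000 by 1.44 ± 0.39 (adjusted p = 0.0397). Without CBP replicate 2 these were -1.41 and -0.88 (limma adjusted p = 0.152 and 0.174), and both calls were also lost without either control sample. CG44000 lost its call in 7 of 15 other settings, with -0.94 (limma adjusted p = 0.0748) once the length trend was removed, and Chd64 in 3 of 15.

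A list of 82 other protein-folding genes gave the setting. Of these, 60 had a feature and 46 were tested. With CBP knockdown 3 of the 46 rose and 7 fell (limma adjusted p under 0.05), with a median difference of -0.49. Over all genes 8.5% rose and 17.4% fell, so the folding genes were not called more often than the table. The 3 that rose were all subunits of the cytosolic chaperonin ring, which folds actin and tubulin. CG7033, annotated as CCT2, was listed at 44.6 and 56.3 RPKM in control, 59.9 and 68.8 with NAP-1 knocked down, and 113 and 122 with CBP knocked down. It rose by 1.21 ± 0.26 (log2, SE; limma adjusted p = 0.0243), Cct5 by 1.24 ± 0.30 (adjusted p = 0.0317) and CG5525 by 1.25 ± 0.32 (adjusted p = 0.0355). Of 15 chaperonin genes listed 7 were tested, with a median difference of 1.21. The other of the 7, CG11267, lay below control without overlap, at 45.1 and 44.2 RPKM in control and 40.9 and 35.7 with CBP knocked down. The remaining 6, which include the mitochondrial Hsp60, lay above control without overlap in both CBP samples, beside 33.7% of all genes. Hop, CHIP and CHORD lay below control without overlap, beside 42.4% of all genes. Both sets were grouped by their direction after the values were seen, so the contrast between them is no separate result.

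The 7 that fell were 4 J-domain genes, 2 of the Hsp90 class and 1 of the Hsp70 class. Hsc70-3, the Hsp70 of the endoplasmic reticulum, was listed at 38.4 and 62.1 RPKM in control, 20.8 and 53.8 with NAP-1 knocked down, and 13.6 and 5.11 with CBP knocked down. It fell by 2.40 ± 0.58 (limma adjusted p = 0.0308). Tpr2, a J-domain co-chaperone with TPR repeats, fell by 1.80 ± 0.40 (limma adjusted p = 0.0263), Trap1, the mitochondrial Hsp90, by 1.32 ± 0.31 (adjusted p = 0.0291), and the J-domain gene CG11035 by 1.30 ± 0.31 (adjusted p = 0.0308). The others were CG3061, CG14650 and Cdc37, the kinase-specific partner of Hsp90, and were named to complete the count. The 7 Hsp70 and Hsp110 genes tested from this second list lay below control without overlap in both CBP samples, beside 42.4% of all genes, with a median difference of -0.58, and 1 of them was called. Among them Hsp70Ba, Hsp70Bb, Hsp70Bbb and Hsp70Bc were low, between 1.55 and 7.08 RPKM. How reads shared by such related genes were counted is not given, so they may not be separate observations. The first list's Hsc70-4 overlapped control and its Hsc70-5 lay above control. Hsf, which drives the heat shock genes, was listed at 4.62 and 4.68 RPKM in control, 3.79 and 3.61 with NAP-1 knocked down, and 3.93 and 2.21 with CBP knocked down, and was not called.

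**Figure D5:**
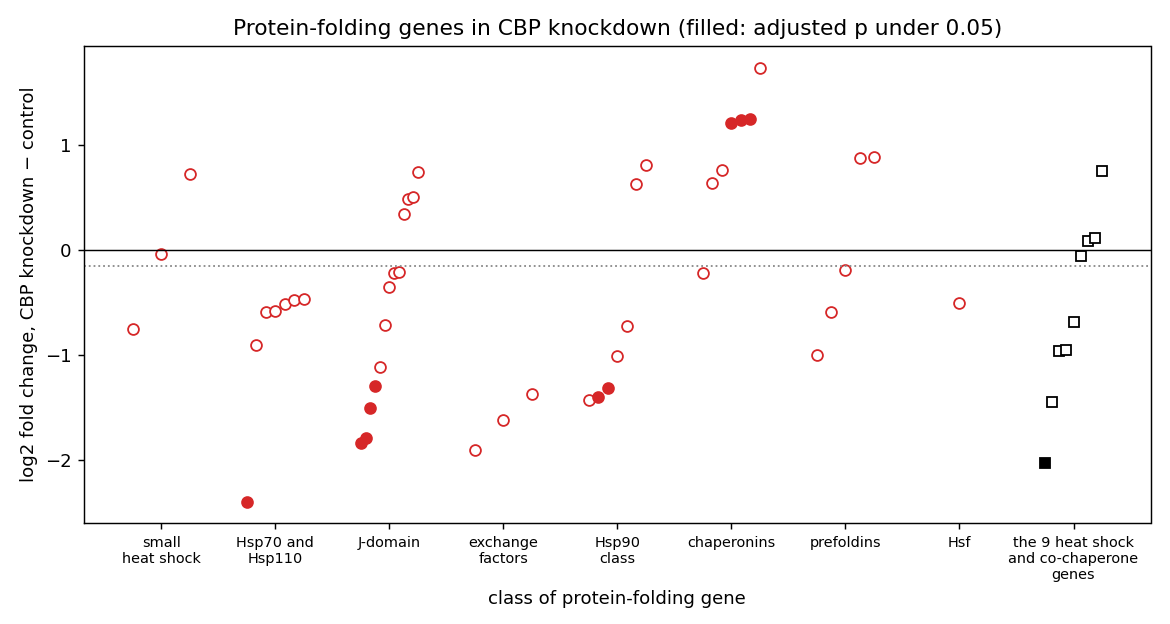
Log2 difference of (RPKM + 1) between CBP knockdown and control for 46 other protein-folding genes by class (circles) and for the 9 heat shock and co-chaperone genes (squares); filled symbols pass an adjusted p of 0.05 by limma and the dotted line is the median of all genes, -0.15. The chaperonins are the only class with filled symbols above 0, and Hop is the 1 filled square.

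With NAP-1 knockdown none of the 46 was called by limma, and none had an unadjusted p under 0.05. The smallest p values were those of CG10635, a prefoldin subunit (0.53 ± 0.30), and CG7033 (0.35 ± 0.26) above control, and of CG10973 (-1.21 ± 0.57) and l(2)tid, a J-domain gene (-1.08 ± 0.62), below it (limma adjusted p = 0.978 for each). Between NAP-1 and CBP knockdown none of the 46 was called by limma, with 9 higher and 7 lower at an unadjusted p under 0.05, beside 17.7% and 13.9% of all genes. Trap1 (1.16 ± 0.31, limma adjusted p = 0.0710) and CG3061 (1.47 ± 0.44, adjusted p = 0.0905) were higher in NAP-1 knockdown. Cct5 (-1.08 ± 0.30, limma adjusted p = 0.0769) and CG7033 (-0.86 ± 0.26, adjusted p = 0.0921) were lower. The rise of the chaperonins with CBP knockdown was called for none of them without CBP replicate 1, without CBP replicate 2 or without either control sample, and for 1 with the replicate block or quantile normalization. The count of falls, 7 with all samples, was 10 without CBP replicate 1 or either NAP-1 sample, 1 without control replicate 2, and 0 without control replicate 1 or CBP replicate 2. It was 4 with the replicate block and 4 with the length trend removed, where Hsc70-3 was at -1.69 and Trap1 at -0.84 (limma adjusted p = 0.0624 and 0.0719).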

How the data were processed

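Messenger RNA of 6 S2 samples was sequenced on a MiSeq from stranded libraries, per the labels' protocols and the design text. The authors deposited 1 table of RPKM values with the count of alignments per sample. Reads were placed on dm3, per the submitters' processing notes. The table had 16381 features. Its 16384 columns equal the limit of a spreadsheet, so it may have been cut there. A gene or transcript without a feature is therefore not shown to be unexpressed. Aligner and counting program were not given in the sources used here. Those with a mean of at least 1 RPKM, and all of Nap1 and nej, were kept (4412, repeats of another feature left out) and summed per symbol to 3988 genes. Transcript lengths, names and gene order came from BDGP6 and RefSeq release 6 annotations. Their coordinates were used only for exon lengths and for the order of genes.

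Groups were compared on log2(RPKM + 1) with limma 3.58.1 (R 4.3.3), with 1 model over 6 samples, a variance trend and Benjamini-Hochberg adjustment over 3988 genes at 0.05. The pseudocount of 1 RPKM understates changes of low genes. A 95% interval is that of the fitted difference. RPKM values are not counts, so no count model was run. The test was run on simulated data with independent errors, no length trend and no deviating sample. It therefore cannot show how the test performs where these occur. Since separate cultures are not stated, p-values measure the spread among samples only, possibly a technical one.

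The genes and lists were chosen with earlier results of these data known. The genes named were the 10 listed, Nap1, nej, up to 4 called genes per direction of the list of 82 by smallest p (2 where none was called), and the 3 most like the gene of widest range. Other genes of that list were named after their values were seen. Alternatives covered the pseudocount, minimum mean, scaling, samples fitted, replicate block, single features, transcript length and each sample left out. Same-numbered samples were correlated in their deviations at r = 0.244 (NAP-1 and control), 0.127 (CBP and control) and -0.242 (NAP-1 and CBP).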

Additional observations from a re-analysis of the deposited data

How the results depend on the processing

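Of 877 values under other settings, for 58 results, 734 were labelled the same and 20 changed sign. In 83 a call was lost with the sign kept, in 4 a call was gained, and in 36 a count or a median moved. The 1 call of a heat shock gene, Hop with CBP knockdown, kept its direction in 15 settings (-2.84 to -1.23, limma adjusted p 0.0234 to 0.157); the count of genes called lower was 0 with the replicate block and 0 to 3 with 1 sample left out. Between NAP-1 and CBP knockdown, leaving out 1 sample gave 0 to 1 called lower. The replicate numbers were not shown to pair the samples, since NAP-1 and CBP samples of the same number deviated in opposite ways. The block gave 189 higher and 505 lower over all genes with CBP knockdown, against 339 and 693, and a block with the numbers crossed, on the 4 samples of NAP-1 and CBP knockdown alone, gave 442 and 252, with 1 of the 9 genes higher, against 0 and 0 with the numbers uncrossed and 0 and 1 with no block in the same 4 samples (57 and 66 with all 6 samples). That setting and the sum with repeated features were chosen after seeing the data. With 1 sample left out, the CBP counts over all genes ran from 0 to 541 higher and 0 to 737 lower (lone samples were assumed to vary like the other groups). With NAP-1 knockdown, median-of-ratios scaling and quantile normalization put Hsp26 at 0.016 and 0.13 and CHORD at 0.0053 and 0.10; removing the length trend put Hsc70-4 at 0.0046 and Hsc70-5 at 0.092; leaving out 1 sample gave -0.77 to 0.36 for Hsc70-4, -0.43 to 0.10 for Hsc70-5, -0.83 to 0.11 for CHIP and -2.01 to 0.71 for CG14207. With CBP knockdown, Hsc70-4 was 0.13 with median-of-ratios scaling, 0.40 without the length trend and -0.51 to 0.39 with 1 sample left out, Hsp26 -0.12 to 0.35 with 1 left out, and nej 0.23 without the length trend. Between the knockdowns, leaving out 1 sample gave -0.71 to 0.41 for Hsc70-4, -0.51 to 0.016 for Hsc70-5 and -0.42 to 0.049 for Hsp26. The cause was not tested. The median of all genes with CBP knockdown moved by 0.16 with median-of-ratios scaling, 0.27 with quantile normalization and 0.24 without the length trend. A minimum mean of 5 RPKM left out Hsp26 and CHORD and gave 275 higher and 311 lower over all genes. A fit with no minimum was not run. With 4162019 to 5362319 alignments a sample, genes near 1 RPKM rest on few reads.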
